A study of Homo sapiens with 9 samples.

Results

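Cingulin and 8 further genes of tight and adherens junctions were followed in U-373MG, an established human line labelled as glioblastoma and astrocytoma. The 9 genes were CGN, TJP1, TJP3, OCLN, F11R, MARVELD2, CDH1, CDH2 and CTNNB1, out of 24462 gene symbols counted. CGN was picked because its level differed between cells given the 2 peptides of the study, and the other 8 were picked as junction genes, to ask whether CGN moves alone. The values of CGN are therefore given as a description with no test. In the comparison of the peptides with each other, none of the 9 genes gets a p. Genes that entered the fit get differences there, with intervals for all but CGN. All 9 symbols had a row in every library, and 6 of them (CGN, TJP1, OCLN, F11R, CDH2 and CTNNB1) passed the filter on low counts and entered the fit.

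Transcripts were counted in 3 groups of 3 libraries of the same cell line. The groups were untreated control cells and cells given 200 nM of a peptide for 48 h, either NnK-1 or CBRV1-10493. Both are synthetic peptides based on jellyfish sequences and called ShK-like, after a sea anemone toxin that blocks voltage-gated potassium channels. The same control libraries serve both peptide comparisons, and how long the control cells were cultured is not stated in the labels. The replicates are called biological. QuantSeq reads the 3′ end region of each polyadenylated transcript, so reads follow the number of transcripts rather than their length, and levels of different genes are not compared, except that abundance helped to choose which genes of a list are named.

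Epithelial and endothelial cells seal the gap between neighbours with tight junctions, in which claudins, occludin and junctional adhesion molecules cross the membrane and the ZO proteins and cingulin form a plaque beneath it. Adherens junctions hold neighbours together through cadherins, whose tails bind beta-catenin and, through alpha-catenin, actin. Astrocytes and glioma cells form no epithelial barrier and are known for N-cadherin rather than E-cadherin, while ZO-1 is found in many cells that lack tight junctions.

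Library totals lay between 11203094 and 13491075 counts. Levels are CPM, the count divided by the library total and multiplied by 1e+06, and a fold change comes from a fit of all 13676 tested genes. NnK-1 replicate 2 lay apart from the other libraries on the first principal component (52.1, with the rest between -18.6 and 9.00) and CBRV1-10493 replicate 1 on the second (44.9, with the rest between -14.0 and 9.79). Glial and progenitor markers summed to 7454 to 11114 CPM per library, mostly from VIM, NES and CD44 (means of 5661, 1424 and 1152 CPM). None of the 10 listed was at 0 in every library, but AQP4 had only 4 reads in all, and GFAP had a mean of 23.4 CPM. The epithelial markers EPCAM and ESRP1 had no read in any library. The 13 epithelial markers together summed to 44.9 to 52.1 CPM in control, 41.8 to 51.7 in NnK-1 and 39.8 to 44.1 in CBRV1-10493 libraries. Of the 8 endothelial markers CLDN5, TEK and ERG had no read, and the list summed to at most 3.88 CPM in any library. Markers of neurons (6 genes) summed to 9.93 to 18 CPM, of oligodendrocytes (6, with OLIG2 at 0) to 44.9 to 54.6 CPM, and of immune cells (6, with CD3E at 0) to 3.22 to 8.82 CPM. The immune sum was 5.69 to 8.82 CPM in control, 3.22 to 5.10 in NnK-1 and 4.88 to 6.69 in CBRV1-10493 libraries. The part of these sums in the junction values was not tested.

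CGN encodes cingulin, a coiled-coil protein of the cytoplasmic plaque that binds ZO proteins and actomyosin. It stood at 4.06, 2.22 and 3.85 CPM in the control libraries, from 50, 28 and 52 reads. In the NnK-1 libraries it stood at 1.51, 1.25 and 1.32 CPM, from 19, 14 and 16 reads. In the CBRV1-10493 libraries it stood at 3.31, 4.83 and 4.37 CPM, from 40, 59 and 53 reads. All 3 NnK-1 libraries lay below every other library, and the control and CBRV1-10493 libraries overlapped. The group means were 1.36 ± 0.137 CPM with NnK-1, 3.38 ± 1.01 CPM in control and 4.17 ± 0.782 CPM with CBRV1-10493 (SD, n = 3). From lowest to highest the order of the groups was NnK-1, control and CBRV1-10493, and the last 2 did not differ beyond their spread. In these bulk libraries fewer cells with CGN transcripts and fewer transcripts per cell cannot be told apart.

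The fitted log2 fold change of CGN was 1.60 between CBRV1-10493 and NnK-1, a 3.02-fold higher level with CBRV1-10493. Against control the log2 value was -1.28 for NnK-1 and 0.32 for CBRV1-10493. The contrast of the peptides lay between 1.48 and 1.73 when any 1 library was left out, and that of NnK-1 with control between -1.51 and -1.14. CGN was chosen for its values in these same libraries, so these ranges are a description. The value of CBRV1-10493 against control was 0.087 without control replicate 2, the control library with the fewest CGN reads.

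Promoter sequences are shown because their genes, CGN, OCLN and TJP1, had the lowest fitted values of the 6 for NnK-1 against control. They were taken from RefSeq (GRCh38.p14) and each runs from 250 bases before to 50 bases after a gene start, 5′ to 3′ on the gene's strand. Windows of CGN, CTNNB1, MARVELD2, OCLN, TJP1 and TJP3 were searched, and F11R and CDH1 had no match in the promoter table. CDH2 is not reported here. Capitals mark CAGGTG or its complement CACCTG, the E-box bound by the SNAI and ZEB repressors, and CACGTG, the E-box bound by USF and MYC proteins. Both strands were searched, and the motifs do not overlap here.
CGN, chr1:151511137-151511436, plus strand: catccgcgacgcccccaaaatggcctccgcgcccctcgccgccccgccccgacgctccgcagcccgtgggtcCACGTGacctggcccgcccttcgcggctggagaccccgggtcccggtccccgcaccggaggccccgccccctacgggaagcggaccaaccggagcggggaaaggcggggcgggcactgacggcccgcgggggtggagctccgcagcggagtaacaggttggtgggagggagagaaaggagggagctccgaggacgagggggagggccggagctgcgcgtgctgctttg
OCLN, chr5:69492297-69492596, plus strand: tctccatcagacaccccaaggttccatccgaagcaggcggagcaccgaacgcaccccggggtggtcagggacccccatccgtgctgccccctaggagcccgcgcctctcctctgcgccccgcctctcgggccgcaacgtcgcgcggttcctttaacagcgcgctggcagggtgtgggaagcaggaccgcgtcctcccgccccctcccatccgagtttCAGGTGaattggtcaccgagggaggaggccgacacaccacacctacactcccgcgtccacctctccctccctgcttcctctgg
TJP1, chr15:29969000-29969299, minus strand: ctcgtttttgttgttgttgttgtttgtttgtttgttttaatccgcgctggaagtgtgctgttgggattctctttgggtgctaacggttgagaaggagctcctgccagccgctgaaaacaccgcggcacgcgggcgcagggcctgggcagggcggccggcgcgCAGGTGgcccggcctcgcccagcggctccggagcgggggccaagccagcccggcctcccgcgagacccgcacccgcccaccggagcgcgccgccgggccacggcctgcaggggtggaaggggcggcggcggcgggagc
The CGN window holds CACGTG at position -178 from the gene start and has no match to CAGGTG or CACCTG. The OCLN window holds CAGGTG at -33 and the TJP1 window at -88. A further OCLN start, shortly downstream, has 2 matches to CAGGTG, and the 3 other TJP1 starts have none. Of the 2 TJP3 windows, 1 holds CACGTG at -92 and the other CAGGTG at -7. The CTNNB1 and MARVELD2 windows hold no match to either motif. Of 35116 windows of 300 bases in the table, 20.6% hold CAGGTG or CACCTG and 7.26% hold CACGTG. A match describes letters in a window and is not a binding site.

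**Figure D1:**
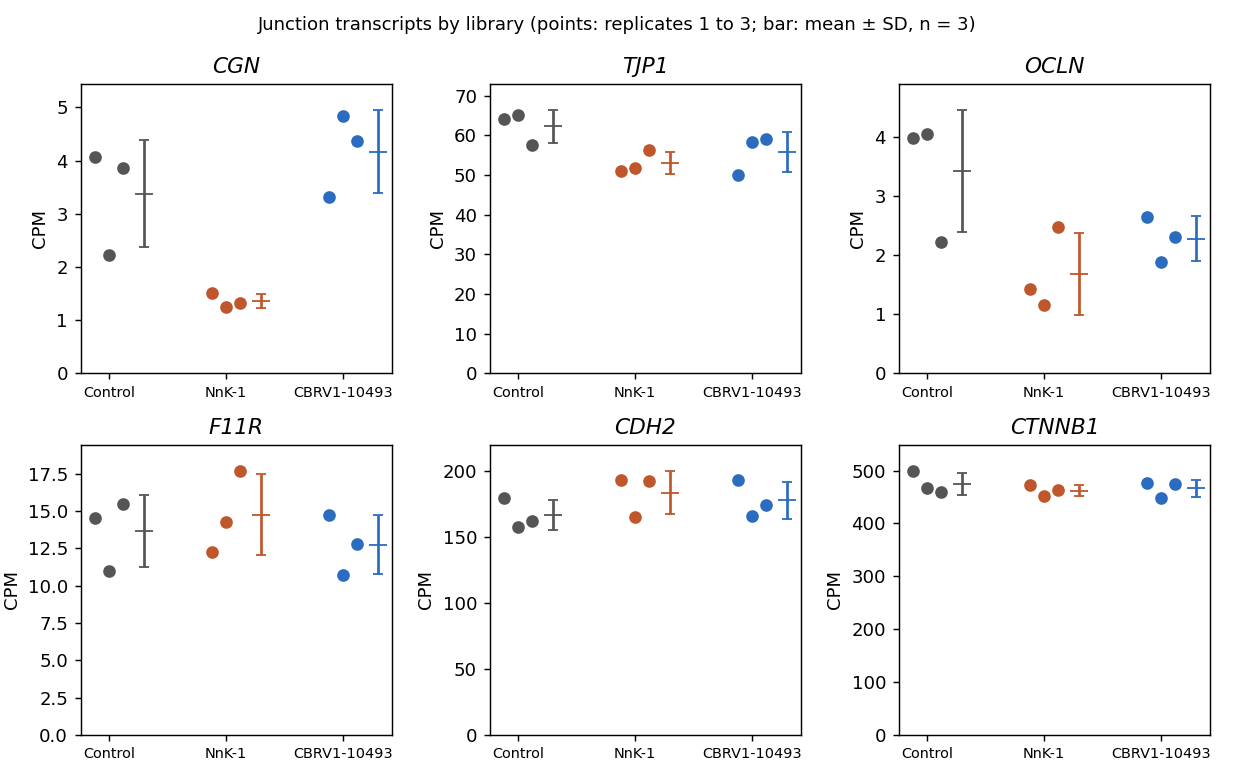
Levels of the 6 junction genes that entered the fit in CPM on axes that start at 0, for control, NnK-1 and CBRV1-10493 libraries; points are libraries and bars the mean ± SD of 3. CGN in the NnK-1 libraries lies between 1.25 and 1.51 CPM, below all other libraries, while CTNNB1 lies between 449 and 499 CPM in all 9.

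TJP1 encodes ZO-1, the scaffold that links claudins and occludin to cingulin and actin. It stood at 64.0, 65.2 and 57.5 CPM in control libraries, at 51.1, 51.9 and 56.2 CPM with NnK-1, and at 50.04, 58.4 and 59.1 CPM with CBRV1-10493. Every NnK-1 library lay below every control library, by a narrow margin in the closest pair, and the CBRV1-10493 libraries overlapped both. The log2 fold change was -0.20 for NnK-1 against control (95% interval -0.45 to 0.04, adjusted p = 0.727 by edgeR's quasi-likelihood test). For CBRV1-10493 against control it was -0.14 (interval -0.39 to 0.10, adjusted p = 1.00 by the same test), and -0.07 without CBRV1-10493 replicate 1. Between CBRV1-10493 and NnK-1 the difference was 0.06 (interval -0.19 to 0.31).

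Groups that do not overlap were common in these data. With NnK-1, 7.92% of all tested genes had every library below every control library and 5.08% had every library above (13% together). TJP1 was the 1 gene in that position among the 5 tested genes that were chosen by function. With CBRV1-10493 these shares were 4.96% below and 3.91% above (8.88% in either direction), and none of the 6 junction genes was separated from control. Between the peptides 4.71% of genes were higher in every CBRV1-10493 library than in any NnK-1 library, CGN among them because it was chosen so. In either direction 8.88% of genes were separated between the peptides, and 4.31% had an unadjusted p under 0.05.

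TJP3 encodes ZO-3, a ZO protein of epithelial cells that also binds cingulin. It had 2, 3 and 6 reads in control libraries, 0, 0 and 2 with NnK-1, and 1, 3 and 3 with CBRV1-10493. The groups overlapped, and the gene lay under the filter. Over the group, the 11 control reads give 0.287 CPM (exact Poisson interval 0.143 to 0.513), the 2 NnK-1 reads 0.0557 CPM (0.00675 to 0.201) and the 7 CBRV1-10493 reads 0.192 CPM (0.0773 to 0.396). These intervals overlap and cover counting error only.

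OCLN encodes occludin, a membrane protein with a tail that binds ZO-1. It stood at 3.98, 4.05 and 2.22 CPM in control libraries (49, 51 and 30 reads), at 1.43, 1.16 and 2.47 CPM with NnK-1 (18, 13 and 30 reads), and at 2.65, 1.88 and 2.31 CPM with CBRV1-10493 (32, 23 and 28 reads). Control replicate 3 and NnK-1 replicate 3 overlapped, so the groups were not separated. The log2 fold change was -0.98 for NnK-1 against control (interval -1.99 to 0.03, adjusted p = 0.680, edgeR), and it lay between -1.36 (without NnK-1 replicate 3) and -0.787 (without NnK-1 replicate 2) when 1 library was left out. For CBRV1-10493 against control it was -0.56 (interval -1.55 to 0.42, adjusted p = 1.00, edgeR). The peptides differed by 0.42 (interval -0.61 to 1.44), by 0.224 to 0.796 when 1 library was left out (0.224 without NnK-1 replicate 2, 0.796 without NnK-1 replicate 3), and by 0.098 without both libraries that lay apart. As a ratio of CBRV1-10493 to NnK-1, the OCLN interval runs from 0.657-fold to 2.71-fold. A near-identical pseudogene copy, OCLNP1, has no row under that symbol in the count files, and other names for it were not looked up. The rule for reads that match both is unknown here, so the OCLN level is uncertain.

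MARVELD2 encodes tricellulin, the occludin relative at corners where epithelial cells meet. It had 0 reads in all 9 libraries, which over 110687060 counts allows a level of up to 0.0271 CPM for 3 counts.

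F11R encodes JAM-A, an adhesion molecule of the immunoglobulin family at the tight junction and on blood cells. It stood at 14.5, 10.96 and 15.5 CPM in control libraries, at 12.3, 14.3 and 17.6 CPM with NnK-1, and at 14.7, 10.7 and 12.8 CPM with CBRV1-10493. All groups overlapped. The log2 fold change was 0.14 for NnK-1 (interval -0.32 to 0.59, adjusted p = 0.928, edgeR) and -0.09 for CBRV1-10493 (-0.54 to 0.37, adjusted p = 1.00, edgeR), and its sign turned when single libraries were left out. The peptides differed by -0.22 (interval -0.67 to 0.23). In GENCODE release 29 a protein-coding transcript unit overlaps F11R on the same strand, so reads may be shared.

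**Figure D2:**
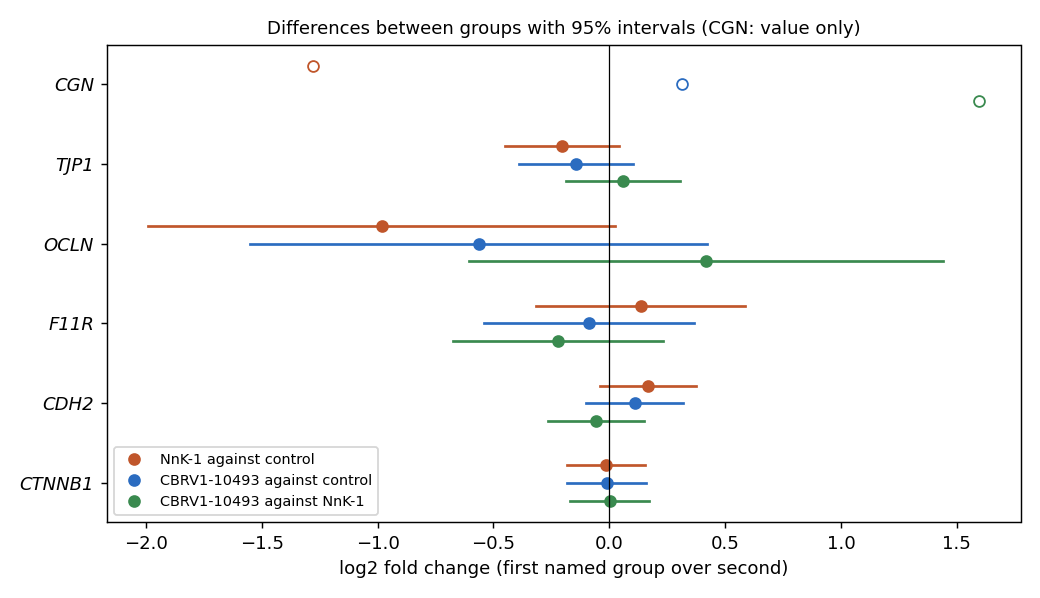
Fitted log2 fold changes of the 6 junction genes in the 3 comparisons, with lines for 95% intervals derived from the fit; CGN, chosen for its difference between the peptides, is drawn as open points with no interval. Intervals of all 5 other genes cross 0 in every comparison, the widest for OCLN and the narrowest for CTNNB1.

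Of the cadherins, CDH2 encodes N-cadherin, the classical cadherin of neural and mesenchymal cells. It stood at 179, 158 and 162 CPM in control libraries, at 193, 165 and 192 CPM with NnK-1, and at 193, 166 and 174 CPM with CBRV1-10493. The groups overlapped. Its log2 fold change was 0.17 with NnK-1 (interval -0.04 to 0.37, adjusted p = 0.731, edgeR) and 0.11 with CBRV1-10493 (-0.10 to 0.32, adjusted p = 1.00, edgeR; 0.04 without CBRV1-10493 replicate 1). The peptides differed by -0.06 (interval -0.27 to 0.15).

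CDH1 encodes E-cadherin, the cadherin of epithelia. It had 0 reads in the 3 control libraries, for which a floor of 3 counts over the group is 0.0781 CPM and the exact Poisson upper limit 0.0961 CPM, 1 read with NnK-1 (in replicate 3) and 6 with CBRV1-10493. All 6 lay in CBRV1-10493 replicate 1, the library that lay apart on the second component, and the other two libraries of that group had 0. Without that library no CBRV1-10493 read of CDH1 was left.

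CTNNB1 encodes beta-catenin, which joins cadherins to alpha-catenin and also acts in Wnt signalling. It stood at 499, 467 and 460 CPM in control libraries, at 473, 451 and 463 CPM with NnK-1, and at 477, 449 and 474 CPM with CBRV1-10493. The groups overlapped, and the log2 fold changes were -0.01 for each peptide against control (adjusted p = 0.986 for NnK-1 and adjusted p = 1.00 for CBRV1-10493, edgeR). The interval was -0.18 to 0.16 for each peptide. The peptides differed by 0.0019 (interval -0.17 to 0.17). CTNNB1 overlaps ULK4 on the opposite strand in GENCODE release 29, and whether the counting used strand is not stated in the labels.

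**Figure D3:**
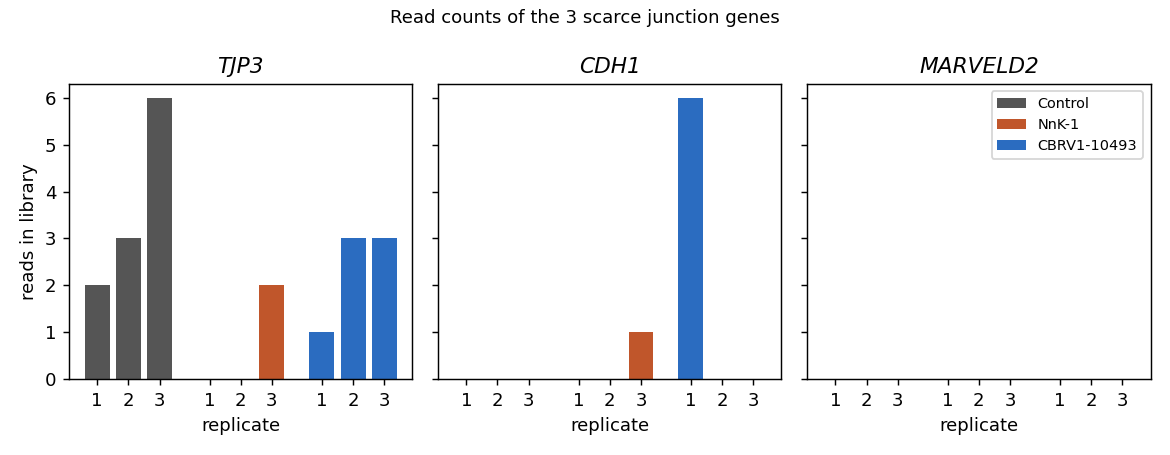
Reads per library of TJP3, CDH1 and MARVELD2, the 3 junction genes under the filter; bars are single libraries, numbered by replicate, on an axis that starts at 0. TJP3 had at most 6 reads in a library, the 6 CDH1 reads with CBRV1-10493 lie in replicate 1, and MARVELD2 had none.

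Among the 8 genes chosen by function, of which 5 were tested, edgeR's quasi-likelihood test called 0 for NnK-1 and 0 for CBRV1-10493 against control, where the background is 0% of 13676 genes in both comparisons. At an unadjusted p under 0.05 there were 0 of these 5 in either comparison, beside 7.32% of all genes for NnK-1 and 2.89% for CBRV1-10493. For NnK-1 that count became 1 of 5 with library totals as the only scaling, without control replicate 3, without NnK-1 replicate 2, without NnK-1 replicate 3 and without both libraries that lay apart. The share of all genes under those settings was not computed, so 7.32% is not their background. DESeq2 and limma-voom also called 0 of the genes chosen by function. Across the 9 libraries the log2 CPM of TJP1 had a Pearson correlation of 0.42 with that of CGN and OCLN one of 0.41. CTNNB1 stood at 0.25, CDH2 at -0.26 and F11R at -0.28. Over 10618 genes of at least 5 CPM the median correlation with CGN was 0.050, with the 5th and 95th percentiles at -0.63 and 0.64, so all 5 values lay inside that range. OCLN, with a mean of 2.46 CPM, lies under that minimum, so the range is not a like background for it. The points share their libraries, and these figures are a description.

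The 5 genes whose pattern over the 9 libraries was most like that of CGN were CAPS (Pearson correlation 0.93), CSRP2BP (0.91), SSC5D (0.91), KDELR3 (0.90) and FNBP1L (0.90). None is on the junction lists. CAPS, which encodes a calcium-binding protein, stood at 357, 324 and 347 CPM in control libraries, at 275, 261 and 298 CPM with NnK-1, and at 318, 360 and 376 CPM with CBRV1-10493. Its NnK-1 libraries were lowest, as they were for CGN, and its control and CBRV1-10493 libraries overlapped. CAPS was picked for its likeness to CGN in these same libraries, so the shared order follows from the choice.

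The closest relative of cingulin, paracingulin, is encoded by CGNL1. It stood at 37.6, 57.3 and 42.6 CPM in control libraries, at 51.4, 59.6 and 52.6 CPM with NnK-1, and at 44.7, 39.4 and 55.4 CPM with CBRV1-10493. The groups overlapped. The log2 fold change was 0.28 for NnK-1 (interval -0.05 to 0.61, adjusted p = 0.721, edgeR) and 0.03 for CBRV1-10493 (-0.30 to 0.37, adjusted p = 1.00, edgeR).

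Further genes of the tight junction were sparse in part: 7 of the 34 listed had no read at all, and 15 were tested. For NnK-1, 6 of the 15 lay above 0 and 9 below, with a median log2 fold change of -0.14. For CBRV1-10493, 5 lay above 0 and 10 below, with a median of -0.29. Over all tested genes the medians were 0.0033 and 0.0027, with 50.6% and 50.8% above 0. No gene of the list passed the test. Here and for the lists that follow, a pair of log2 fold changes gives NnK-1 against control first and CBRV1-10493 against control second. Some genes were named for the smallest p, which favours groups apart from control. JAM3, a junctional adhesion molecule, stood at 140 ± 8.50 CPM in control, 125 ± 7.17 with NnK-1 and 130 ± 5.58 with CBRV1-10493 (SD, n = 3). CLDN7, a claudin of epithelia that is also on the epithelial marker list, stood at 11.6, 9.21 and 12 CPM in control, at 10.2, 5.53 and 8.91 CPM with NnK-1, and at 6.86, 9.17 and 8.25 CPM with CBRV1-10493. Its CBRV1-10493 libraries lay below all control libraries, yet the log2 fold change of -0.42 did not pass (interval -0.95 to 0.11, adjusted p = 1.00, edgeR). CLDN12 had a log2 fold change of -0.32 for CBRV1-10493 and -0.04 for NnK-1. IGSF5, an adhesion molecule, had a log2 fold change of 1.49 for NnK-1 (interval -0.23 to 3.22) and 1.22 for CBRV1-10493, from 0.450 ± 0.285 CPM in control.

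Further cadherins were fewer: 9 of the 21 listed had no read at all, and 7 were tested. For NnK-1, 2 of 7 lay above 0 (median -0.01), and for CBRV1-10493, 5 of 7 (median 0.14). CDH4, which encodes R-cadherin of the nervous system, stood at 488, 539 and 561 CPM in control libraries, at 444, 549 and 549 CPM with NnK-1, and at 507, 563 and 545 CPM with CBRV1-10493. Its groups overlapped, and its log2 fold changes were -0.01 and 0.04. CDH11, a mesenchymal cadherin, had a log2 fold change of -0.20 for NnK-1 (interval -0.49 to 0.10) and -0.02 for CBRV1-10493. CDH13, a cadherin without a cytoplasmic tail, had log2 fold changes of 0.13 and 0.15, CDH6 of -0.46 and -0.14, and CDH15 of 0.03 and 0.51.

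Catenins, nectins and adaptors of the adherens junction had 16 tested genes of 17 listed. For NnK-1, 11 lay above 0 (median 0.11), and for CBRV1-10493, 11 (median 0.03). CTNND1, the p120-catenin that holds cadherins at the membrane, stood at 202, 182 and 205 CPM in control libraries, at 175, 114 and 173 CPM with NnK-1, and at 166, 210 and 201 CPM with CBRV1-10493. Every NnK-1 library lay below every control library, and NnK-1 replicate 2, the library that lay apart, was the lowest. The log2 fold change was -0.33 for NnK-1 (interval -0.60 to -0.06, adjusted p = 0.620, edgeR) and -0.02 for CBRV1-10493. PVRL1, which encodes nectin-1, stood at 15.4, 15.5 and 15.3 CPM in control libraries and at 21.0, 19.1 and 19.96 CPM with NnK-1, a log2 fold change of 0.41 with the groups apart (adjusted p = 0.660, edgeR). With CBRV1-10493 it stood at 20.4, 15.9 and 14.5 CPM (log2 fold change 0.15), which overlapped control. PVRL2, another nectin, had log2 fold changes of 0.24 and 0.19, and EPB41L5 of 0.22 and 0.43. CTNND2, the neural delta-catenin, stood at 259 ± 15.9 CPM in control, with log2 fold changes of 0.10 and 0.09, and the actin-binding VCL at 246 ± 8.70 CPM, with log2 fold changes of -0.05 and 0.09.

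Polarity proteins and scaffolds had 20 tested genes of 23 listed, with 11 above 0 for NnK-1 (median 0.02) and 15 for CBRV1-10493 (median 0.07). MPP5, the PALS1 scaffold of the Crumbs complex, stood at 27.1, 23.2 and 22.8 CPM in control libraries and at 27.9, 36.7 and 30.8 CPM with CBRV1-10493, with no overlap and a log2 fold change of 0.40 (interval 0.03 to 0.77, adjusted p = 1.00, edgeR). With NnK-1 its log2 fold change was -0.02. MAGI1, a scaffold of tight junctions, stood at 6.26, 5.64 and 7.26 CPM in control and at 9.68, 8.84 and 8.75 CPM with CBRV1-10493 (log2 fold change 0.52, interval -0.0047 to 1.05, adjusted p = 1.00, edgeR), and its log2 fold change for NnK-1 was 0.02. DLG1 had log2 fold changes of 0.02 and 0.04, LLGL1 of -0.29 and -0.06, and PARD6G of 0.75 and 0.72. The CBRV1-10493 libraries of MAGI1 lay above all control libraries, and the NnK-1 libraries of LLGL1 below all of them.

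Desmosome genes, which tie junctions to intermediate filaments, had 5 tested of 14 listed, with 4 above 0 for NnK-1 and 3 for CBRV1-10493 (medians 0.18 and 0.29). DSG2, a desmosomal cadherin, stood at 15.6, 16.1 and 13.7 CPM in control libraries and at 18, 23.5 and 17.2 CPM with CBRV1-10493, with no overlap (log2 fold change 0.39, interval -0.0053 to 0.78, adjusted p = 1.00, edgeR). With NnK-1 its log2 fold change was -0.06. PKP2, a plakophilin, stood at 0.650, 0.238 and 1.04 CPM in control and at 1.04, 3.66 and 2.39 CPM with NnK-1 (1.89 as a log2 fold change, interval 0.43 to 3.34, adjusted p = 0.608, edgeR), where the highest value was again that of NnK-1 replicate 2. With CBRV1-10493 it stood at 1.24, 1.72 and 1.24 CPM, above all control libraries (log2 fold change 1.12, interval -0.36 to 2.59, adjusted p = 1.00, edgeR). PKP4 had log2 fold changes of 0.02 and -0.13, and DSP of 0.53 and -0.22.

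Transcription factors known to act on junction genes had 8 tested of 15 listed. For NnK-1, 1 of 8 lay above 0 (median -0.10), and for CBRV1-10493, 5 of 8 (median 0.05). ZEB1, a repressor of E-cadherin, stood at 107, 130 and 111 CPM in control libraries, at 102, 120 and 112 CPM with NnK-1, and at 122, 119 and 105 CPM with CBRV1-10493, and the groups overlapped. TWIST1, another such repressor, stood at 21.7, 23.6 and 24.9 CPM in control, 20.3, 18.3 and 20.6 CPM with NnK-1 (log2 fold change -0.22, adjusted p = 0.794, edgeR) and 18.3, 19.1 and 20.1 CPM with CBRV1-10493 (log2 fold change -0.28, adjusted p = 1.00, edgeR). Both peptide groups lay below control, and they share that control. SNAI1 had log2 fold changes of 0.62 and 0.37, TCF3 of -0.10 and -0.16, and TCF4 of -0.11 and -0.02. GRHL2 and KLF8 had no read.

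Genes of beta-catenin turnover and its direct targets had 19 tested of 24 listed, with 10 above 0 for NnK-1 (median 0.05) and 13 for CBRV1-10493 (median 0.02). BCL9L, a beta-catenin coactivator, stood at 114, 132 and 128 CPM in control libraries, at 106, 110 and 98.8 CPM with NnK-1 and at 94.7, 113 and 106 CPM with CBRV1-10493. Every library of either peptide lay below every control library, and both comparisons share that control. The log2 fold change was -0.22 for NnK-1 (interval -0.44 to 0.00068, adjusted p = 0.678, edgeR) and -0.24 for CBRV1-10493 (-0.47 to -0.02, adjusted p = 1.00, edgeR). APC, a scaffold of the destruction complex, had log2 fold changes of 0.11 and 0.17, and the kinase CSNK1A1 of -0.14 and 0.10. The NnK-1 libraries of CSNK1A1 lay below all control libraries. PYGO2, a coactivator, had log2 fold changes of 0.25 and 0.0026, and the transcription factor TCF7L2 of -0.01 and -0.02.

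**Figure D4:**
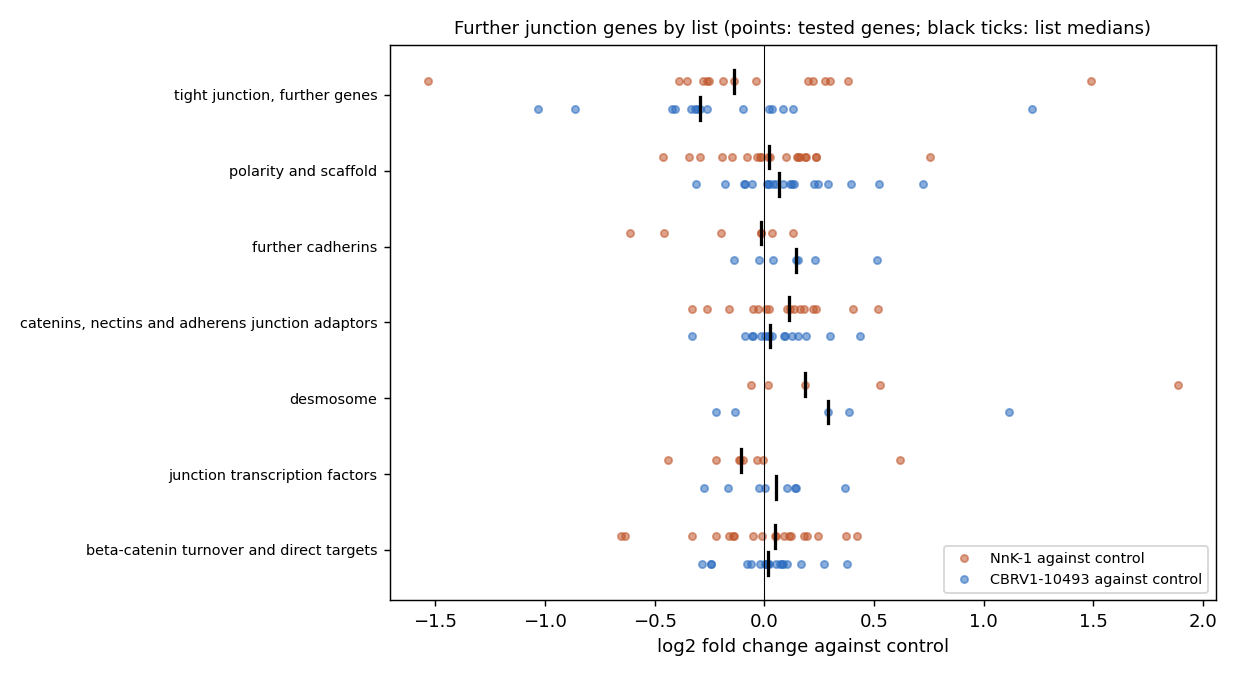
Fitted log2 fold change against control of each tested gene on the 7 junction lists, for NnK-1 and CBRV1-10493, with black ticks at list medians. List medians lie between -0.29 and 0.29, and none of the points is a gene that passed the test.

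Over the 7 lists 90 distinct genes were tested, and edgeR's quasi-likelihood test called 0 of them for either peptide against control. At an unadjusted p under 0.05 there were 3 for NnK-1 (3.33%, where all genes give 7.32%) and 2 for CBRV1-10493 (2.22%, where all genes give 2.89%). The NnK-1 count was 9 of 91 (9.89%) without NnK-1 replicate 1, and the CBRV1-10493 count 4 of 92 (4.35%) without CBRV1-10493 replicate 3. Shares over all genes were not computed for these refits, so 7.32% and 2.89% are not their background. Over the alternatives the count lay between 3 and 9 for NnK-1 and between 1 and 4 for CBRV1-10493. In each, 0 genes of the lists passed the adjusted threshold. DESeq2 and limma-voom called 0 as well. With NnK-1, genes above and below all control libraries numbered 1 and 1 for polarity and 2 and 2 for catenins. Transcription factors had 0 and 1, beta-catenin genes 0 and 2, and the other lists 0 (all genes 5.08% and 7.92%). With CBRV1-10493, tight junction genes had 0 and 2, polarity 2 and 0, and catenins 1 and 1. Desmosome genes had 2 and 0, transcription factors 0 and 1, beta-catenin genes 1 and 1, and cadherins 0 (all genes 3.91% and 4.96%). Between the peptides, CBRV1-10493 lay above NnK-1 in 4 of 15 tight junction, 12 of 20 polarity and 7 of 7 cadherin list genes. That held for 5 of 16 catenin, 2 of 5 desmosome, 5 of 8 transcription factor and 8 of 19 beta-catenin genes. Over all genes the share was 50.3%. CDH2, which is not on the cadherin list, went the other way at -0.06. The lowest of the 7 cadherin list values was 0.022, and the intervals of the cadherins named from that list all cross 0. DSG2, MAGI1, CDH6, VCL and 1 beta-catenin list gene were higher in every CBRV1-10493 library (4.71% of all genes). The tight junction and polarity lists each had 1 gene lower in every library (4.17%).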

How the data were processed

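U-373MG cells were profiled in 9 QuantSeq libraries, 3 per group, from 500 ng of total RNA each, sequenced as single reads of 75 bp, per the labels' protocols and the design text. Bowtie2, bedtools and hg19 appear in the submitters' processing notes; versions, annotation and counting options were not found. The design text also states that the authors analysed the data with edgeR and TMM. The deposited files hold raw read counts per gene symbol (25737 entries), unnormalized, and entries sharing a symbol were summed (24462 symbols).

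The design text calls the replicates biological without naming separate cultures, so p-values cover the spread between these libraries. No 2 libraries of a group were duplicates (chi-square per degree of freedom from 6.78 to 21.6). Printed levels are CPM of the library total, and errors are SDs. Library totals limit precision as read counts do, and Poisson intervals and floors cover counting error only.

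Genes kept by filterByExpr (minimum count 10, minimum total 15; 13676 genes) entered 1 quasi-likelihood fit over all 9 libraries with TMM scaling (edgeR 4.0.16, R 4.3.3). Adjustment was by Benjamini-Hochberg over all tested genes, two-sided, with a threshold of 0.05. Intervals (95%) are approximate and derived from the F statistic. The fit was tested on simulated data. The members, lists and tests were chosen with earlier results of these data known. Named genes are the members, in each list the 2 most abundant and, for each peptide, the 2 with the smallest p, and the 5 most like CGN by log2 CPM (prior count 2). Replicate numbers were not taken as pairs. DESeq2 1.42.0 and limma 3.58.1 served as alternatives, beside other scalings, filters and left-out libraries. A further gene list is not reported here.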

Additional observations from a re-analysis of the deposited data

How the results depend on the processing

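Across 18 alternatives, of which 1, without both libraries that lay apart, was chosen after seeing the data, 0 of the members other than CGN were called for either peptide against control. OCLN and CGN could not be fitted when at least 5 CPM in 3 libraries was required. Over all genes, no filter on low counts gave 74 calls for NnK-1 against control, 6 for CBRV1-10493 against control and 1 between the peptides, and DESeq2 without the low-count filter gave 2 for NnK-1, all against 0 in the fit used. Signs turned in F11R and CTNNB1. When 1 library was left out, F11R lay between -0.014 and 0.261 for NnK-1 and between -0.225 and 0.025 for CBRV1-10493, and CTNNB1 between -0.031 and 0.018 and between -0.034 and 0.019. Between the peptides CTNNB1, at 0.002, lay between -0.023 (without both libraries that lay apart) and 0.031 over all alternatives. The cause was not tested. With the replicate block 0 genes were called in all 3 comparisons and the block changed no call. No clear pairing of the libraries by number was seen, and pairing was not tested. Of 9 same-number pairs, 1 correlated above 0.1 in their deviations (from -0.057 to 0.13), and other pairs ran from -0.093 to 0.097. Of 9 libraries, 5 correlated best with their own number. With 14 to 59 reads of CGN and 13 to 51 of OCLN per library, depth limits both. TJP3 and CDH1 entered only the fits without a low-count filter, where 0 of 7 members other than CGN were called, and MARVELD2 with 0 reads entered none.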
